A study of Mus musculus with 35 samples.

Results

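Expression of 9 genes of the retinoic acid pathway was followed through mouse reprogramming cultures. The genes were taken by name from a deposited table of 21350 genes: the synthesis enzymes Aldh1a1, Aldh1a2 and Aldh1a3, the degrading enzymes Cyp26a1 and Cyp26b1, the binding proteins Crabp1 and Crabp2, and the receptors Rarb and Rarg. The set was chosen by gene name, with 2 of the genes selected on measured values: Cyp26a1 was noted as an early change in OB cultures and Crabp2 as a late one. For this reason the OB against ODR contrasts at day 1 and day 14 are given below as descriptions with no test. The same holds for Cyp26a1 in any comparison with the OB day 1 libraries and for Crabp2 in any comparison with the OB day 14 libraries.

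The study measured polyadenylated RNA by sequencing in 35 libraries of cells infected with reprogramming factors and grown in iCD1, a reprogramming medium. Its stated subject is Oct4 and Kdm2b induced reprogramming and where the Polycomb complex PRC1.1 sits on chromatin. Factor combinations carry the names OB, OA, ODR, ODB and ODDR, which the labels do not expand. The labels give neither the cells infected nor where replicates came from, so a p-value below reflects library-to-library spread that may be technical only.

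The OB groups without BMP4 hold 2 libraries at day 1, 4 at day 6 and 3 at day 14. The OA groups, all without BMP4, hold 2, 3 and 3 libraries at the same days, and the ODR groups without BMP4 hold 2, 2 and 3 that could be used. BMP4, a bone morphogenetic protein, was present at 10 ng/ml in 2 OB libraries and 1 usable ODR library of day 6, and all other libraries of those 3 combinations had none. At day 9 there was 1 ODB and 1 ODDR library without BMP4. Single libraries of mouse embryonic stem cells (mESC) and mouse embryonic fibroblasts (MEF), which the labels do not call infected, complete the set.

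Kdm2b, which encodes a histone demethylase that brings PRC1.1 to unmethylated CpG islands, was listed at the table's ceiling of 18690 in the OB libraries of day 1 and day 6 without BMP4 and at 4220 to 6246 at day 14. It lay at 202 to 460 in the OA, ODR and ODDR libraries. The related gene Kdm2a was at 9294 or 18690 in every OA library except day 14 replicate 2, which had 721. That library goes against the other OA day 14 libraries, and levels and differences printed for genes beyond the 9 include it. For the 9 genes, a difference printed below between OA at day 14 and another group that moves by over 1.5 times without it, or a call that it decides, is given both ways. The ODR day 6 replicate 3 column is identical to that of ODR with BMP4 replicate 2 at all 21350 genes, and so are the BMP4 columns of ODDR and ODB at day 9. These shared columns were left out. Depth is unknown, because the values are normalized tag counts with totals of 4255921 to 4398785 in every library.

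Retinoic acid is made from retinol, by way of retinaldehyde, and the last step is carried out by the ALDH1A dehydrogenases. CRABP proteins hold retinoic acid in the cytoplasm, CYP26 enzymes oxidise it, and the RAR receptors, paired with RXR receptors, act on DNA elements near target genes. Cyp26a1 and Rarb are themselves textbook targets of retinoic acid, and in the mouse embryo the pathway patterns the trunk, the hindbrain and the tail bud. In bulk RNA, fewer cells of a type and less RNA per cell cannot be told apart.

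On build GRCm38 (mm10), with GENCODE vM21 gene models, Cyp26a1 spans chr19:37697798-37701536 on the plus strand and Cyp26b1 spans chr6:84571414-84593908 on the minus strand. Crabp2 lies at chr3:87948666-87953376 on the plus strand and Crabp1 at chr9:54764748-54773110 on the plus strand. The receptor genes are on the minus strand, Rarb at chr14:16430839-16819156 and Rarg at chr15:102234938-102257517. Aldh1a1 is at chr19:20492715-20643465 and Aldh1a2 at chr9:71215789-71296243, both on the plus strand, and Aldh1a3 is at chr7:66390890-66427517 on the minus strand. Exons of Rarb overlap 1793 bases of exon of Top2b, a protein-coding gene on the opposite strand. No source used here says whether the authors' counting used strand, so reads of the pair cannot be told apart there.

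Promoter windows from RefSeq, build GRCm38.p6, each run from 250 bases before the start of a gene to 50 bases after it, and 7 of the 9 genes had at least 1, in 9 windows. Crabp2 and Aldh1a3 had no window and could not be searched. The windows were searched for retinoic acid response elements of the type DR5: a pair of half-sites in the same orientation with 5 bases between them, on both strands. The first base of a half-site could be A or G, so that beside the form AGGTCA the search also took in half-sites that read GGGTCA. The third base could be G or T, which adds the form written AGTTCA and, with a G at the start of the half-site, also GGTTCA. A match was present in the Cyp26a1 window and in the Rarb window and in no other of the 9 windows, and 0.0974% of all 32851 windows, 32 in number, held one. Direct repeats with spacers of 2 bases (DR2) and 1 base (DR1) matched none of the 9 windows, against 0.268% and 0.222% of all windows. The Cyp26a1 and Rarb windows are shown because both carry the element while their levels differed across the cultures, and Cyp26b1, which moved with Cyp26a1 in several comparisons, is shown as a window with no match. All are printed 5′ to 3′ on the strand of the gene, and the DR5 is in capitals.
Cyp26a1, chr19:37697558-37697857, plus strand: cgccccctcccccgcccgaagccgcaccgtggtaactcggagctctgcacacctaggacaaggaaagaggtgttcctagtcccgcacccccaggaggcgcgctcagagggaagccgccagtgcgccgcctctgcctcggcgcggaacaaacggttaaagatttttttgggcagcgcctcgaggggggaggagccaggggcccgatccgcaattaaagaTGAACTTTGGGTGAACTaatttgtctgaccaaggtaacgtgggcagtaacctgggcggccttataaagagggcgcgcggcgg
Rarb, chr14:16575427-16575726, minus strand: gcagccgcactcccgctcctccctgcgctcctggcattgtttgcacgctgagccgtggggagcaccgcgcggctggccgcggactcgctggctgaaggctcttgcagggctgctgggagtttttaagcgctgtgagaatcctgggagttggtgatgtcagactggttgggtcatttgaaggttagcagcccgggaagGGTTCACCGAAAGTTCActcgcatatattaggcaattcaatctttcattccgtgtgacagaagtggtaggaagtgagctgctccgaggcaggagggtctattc
Cyp26b1, chr6:84593761-84594060, minus strand: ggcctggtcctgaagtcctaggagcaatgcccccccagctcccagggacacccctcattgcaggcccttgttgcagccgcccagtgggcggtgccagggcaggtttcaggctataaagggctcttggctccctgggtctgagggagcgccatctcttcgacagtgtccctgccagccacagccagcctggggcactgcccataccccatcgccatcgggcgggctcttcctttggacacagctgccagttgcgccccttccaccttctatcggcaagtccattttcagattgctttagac
The 17 bases of each element, read on the strand where the match lies, show how alike they are.
Cyp26a1 DR5: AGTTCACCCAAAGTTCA
Rarb DR5: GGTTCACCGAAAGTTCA
In Cyp26a1 the element is on the strand opposite to the gene, 32 to 16 bases before the start, and in Rarb it is on the gene's own strand, 53 to 37 bases before it. Counted from the 5′ end of the element, with the Rarb base first, the pair differs at 2 of 17 positions, by G1A and G9C. The Cyp26a1 window holds 26 CpG dinucleotides at 62.3% G and C, the Rarb window 17 at 57.7%, and the Cyp26b1 window 9 at 62.3%, against a median of 7 over all windows. A match in these letters is a description of the sequence only.

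Cyp26a1 separated the OB and ODB libraries without BMP4, and OB with it, from all others. It was at 10 or more in every OB library at every day, at 84 in the ODB library of day 9, and between 0 and 6 in every library of the other combinations and of mESC and MEF. Aldh1a3 was higher in OB at day 6, Rarg was lower there, and Crabp2 stood far above all other groups in OB at day 14. BMP4 came with more Cyp26b1 in OB and in ODR.

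Values were compared on the scale log2(value + 1) with limma, fitted to 13860 genes, and a gene was called at an adjusted p (Benjamini-Hochberg, two-sided) under 0.05. All 9 genes passed the filter on low values, a value of at least 10 in 2 or more libraries, but Cyp26a1 did so only through its OB libraries, so its calls between OB and the other combinations add no support to the counts below. Between OB and ODR at day 6, 4 of the 9 were called, beside 10.5% of all genes, with Cyp26a1, Aldh1a2 and Aldh1a3 higher and Rarg lower. The median log2 difference of all 9 was 0.48, against -0.01 over all genes. Without ODR day 6 replicate 1, or without replicate 2, only 2 were called, Cyp26a1 and Aldh1a3.

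Between OB and OA, 2 of the 8 genes tested were called at day 1, beside 1.4% of all genes, and both, Cyp26b1 and Aldh1a3, were higher. At day 6, 4 of 9 were called, beside 7.28% of all genes: Cyp26a1, Aldh1a2 and Aldh1a3 were higher and Rarg was lower. At day 14 the background was 51.7% of all genes, and 1 of 8 was called, Cyp26a1. The count became 3 without OA replicate 1, with Crabp1 and Aldh1a2 added, and 2 without OB replicate 3, with Aldh1a1 added.

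Between OA and ODR, 0 of 9 genes were called at day 1, beside 0.0649% of all genes, and 0 of 9 at day 6, beside 2.22%. At an unadjusted p under 0.05 limma gave 1 and 2 of the 9. At day 14, 2 of 9 were called, beside 5.35% of all genes, and both, Crabp2 and Aldh1a3, were higher. Without OA day 14 replicate 2 the count at day 14 was 4, with Crabp1 (adjusted p = 0.00691) and Aldh1a2 (adjusted p = 0.00189) added, and the Aldh1a2 difference was 1.85, against 0.95 with that library. The OB and OA comparisons with ODR share the ODR libraries, and those of OB with ODR and with OA share the OB libraries, so these counts are not independent of each other.

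**Figure D1:**
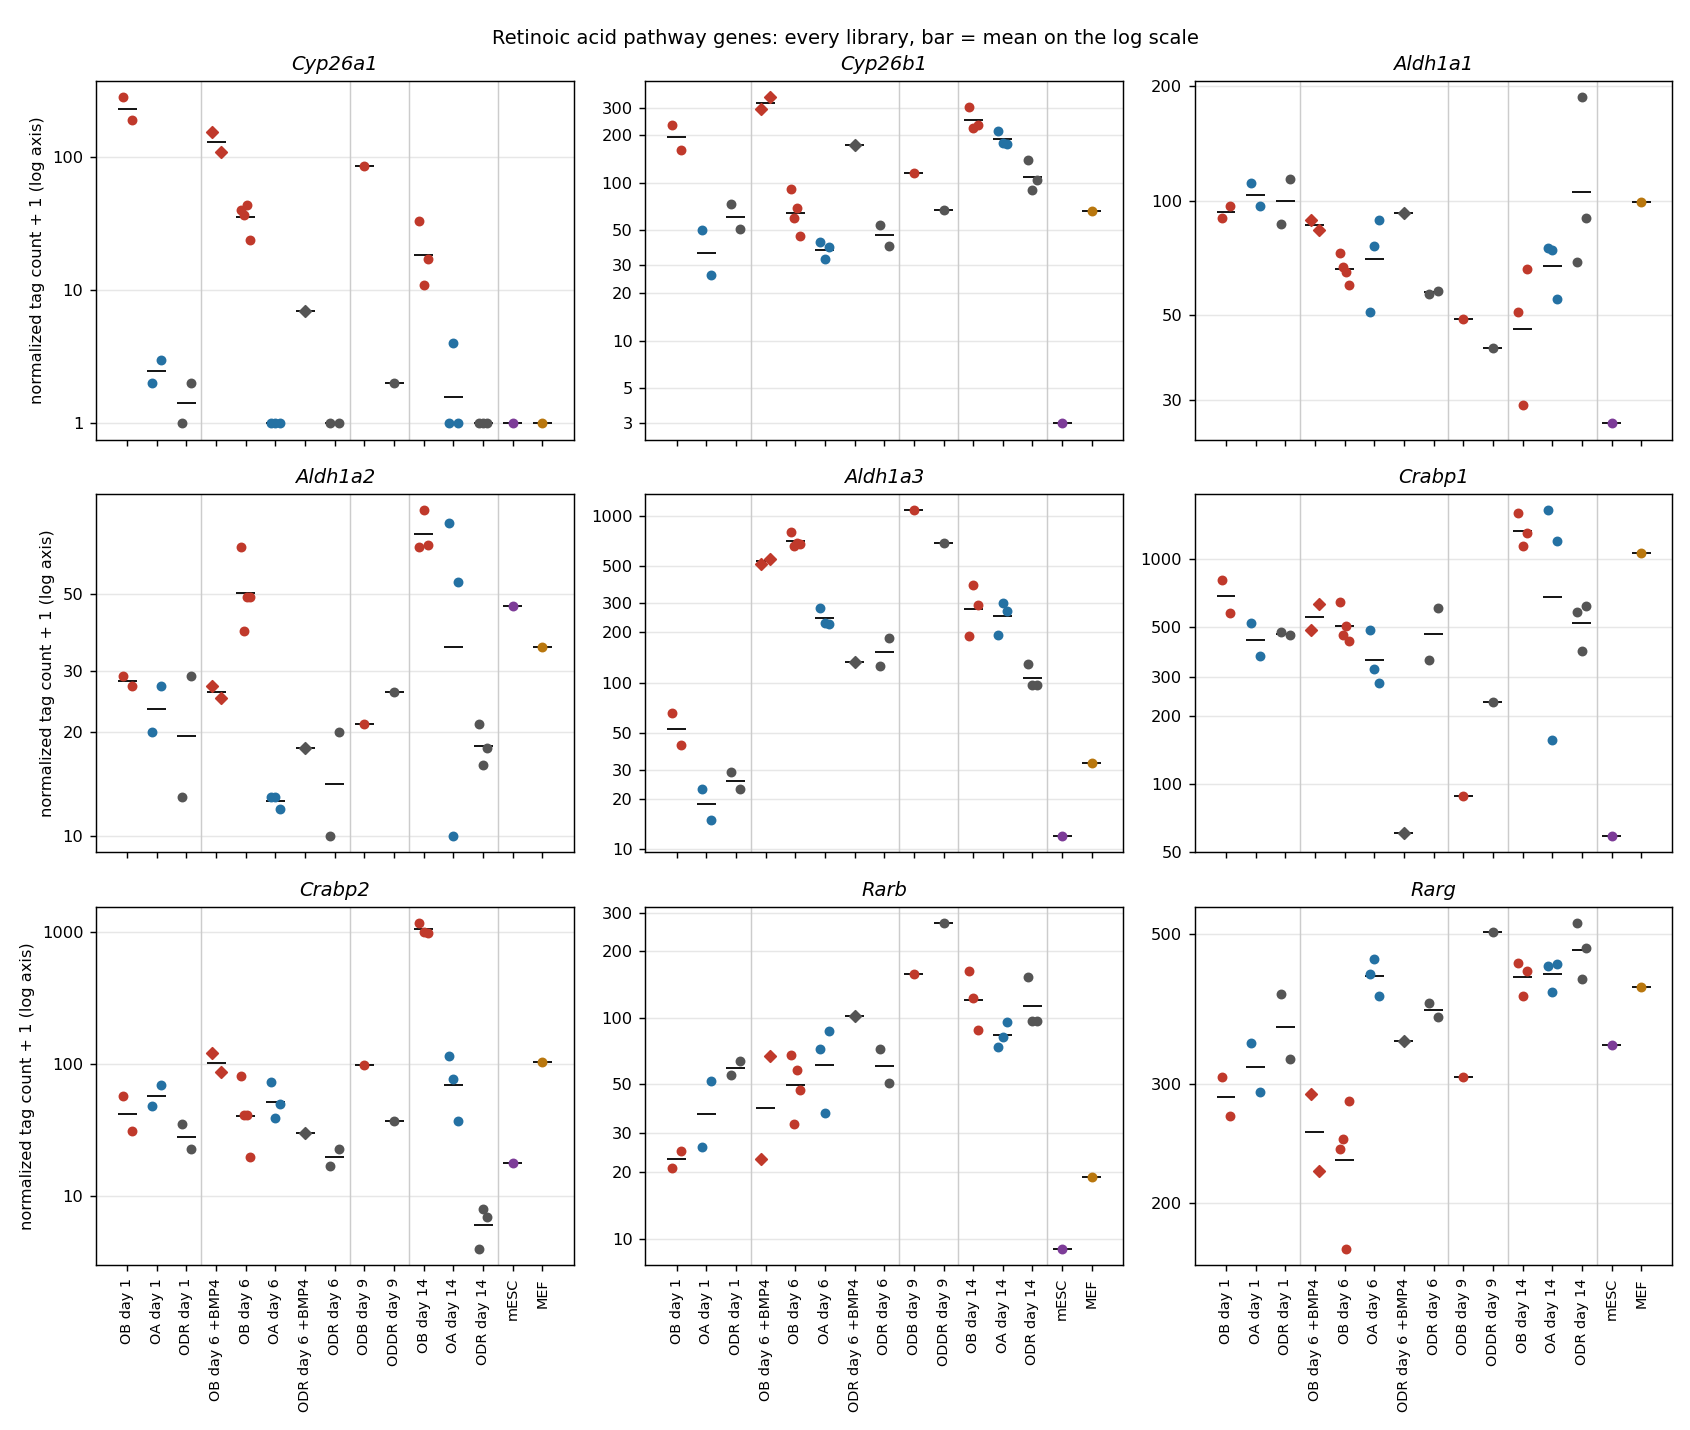
Normalized tag count plus 1 (log axis) of each of the 9 genes in every library used, with 1 point per library, a bar at the group mean on the log scale, and diamonds for BMP4. Cyp26a1 was above 9 only in OB and ODB libraries, and Crabp2 stood at 988 to 1170 in OB at day 14.

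Aldh1a3, which encodes 1 of the enzymes that make retinoic acid, rose between day 1 and day 6 in every combination. It had 799, 656, 688 and 675 normalized tag counts in the 4 OB libraries of day 6, against 65 and 41 at day 1. The OA libraries had 278, 226 and 224 at day 6, against 22 and 14 at day 1, and the ODR libraries 124 and 184 at day 6, against 28 and 22 at day 1. No group at day 6 overlapped its own day 1. The log2 difference was 3.74 ± 0.27 (SE) in OB, adjusted p = 2.27083e-08, 3.71 ± 0.28 in OA, adjusted p = 4.4587e-08, and 2.56 ± 0.31 in ODR, adjusted p = 1.31764e-05 (limma).

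At day 6 the OB libraries all lay above the OA and the ODR libraries for Aldh1a3. The OB mean of 704.5 ± 64.4 (SD, n = 4) was 4.63-fold the ODR mean of 154 ± 42.4 (n = 2) on the fitted scale, a log2 difference of 2.21 ± 0.27 with adjusted p = 4.47691e-05 (limma). Against OA, at 242.7 ± 30.6 (n = 3), it was 1.54 ± 0.24 with adjusted p = 0.000625441. Both calls held under every alternative. At day 1 the OB libraries, with 65 and 41, were above the OA libraries, with 22 and 14, by 1.50 ± 0.31 on the log2 scale, adjusted p = 0.0179243. That call was lost without OB replicate 1 (adjusted p = 0.283) or without OA replicate 2 (adjusted p = 0.219), and with only those groups in the fit (adjusted p = 0.311).

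At day 14 Aldh1a3 had 188, 384 and 290 in OB, 193, 300 and 267 in OA, and 129, 95 and 96 in ODR. The OB and OA libraries overlapped, and both were above all ODR libraries. OA was higher than ODR by 1.23 ± 0.25 on the log2 scale, adjusted p = 0.00798259, a call lost when only those groups were fitted (adjusted p = 0.181). The OB to ODR difference, given as a description, was 1.38 ± 0.25. Within OB it fell to those values at day 14, a log2 difference from day 6 of -1.35 ± 0.24 with adjusted p = 0.00010394 (limma).

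Aldh1a2, the enzyme that makes most retinoic acid in the early mouse embryo, had 67, 38, 48 and 48 in OB at day 6. It had 12, 12 and 11 in OA and 9 and 19 in ODR at that day. All OB libraries were above all others of day 6 without BMP4. On the log2 scale they differed by 1.99 ± 0.48 against OA, adjusted p = 0.0151604, and 1.83 ± 0.54 against ODR, adjusted p = 0.0370479 (limma). The call against ODR was lost without any of 5 single libraries, at adjusted p up to 0.333 without ODR replicate 1, and the call against OA without OA replicate 2 or 3 (adjusted p = 0.0538 and 0.0588).

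The day 14 values of Aldh1a2 were 67, 86 and 68 in OB, 79, 9 and 53 in OA, and 20, 15 and 17 in ODR. The OA value of 9 is that of replicate 2, the library with low Kdm2a. The OB libraries were all above the ODR libraries, by 2.03 ± 0.51 on the log2 scale as a description, and overlapped those of OA. The OB to OA difference of 1.08 had adjusted p = 0.0852. It was 0.17 without OA replicate 2 (adjusted p = 0.674) and 1.67 without OA replicate 1, where it was called (adjusted p = 0.00854).

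Aldh1a1, the remaining synthesis enzyme, was called by limma in none of the comparisons tested in the full fit. Without OB day 14 replicate 3 it was lower in OB at day 14 than in OA (adjusted p = 0.0497) and than in OB at day 6 (adjusted p = 0.0434). With only the groups compared in the fit, other comparisons were called. Its log2 difference was then -0.50 in OB from day 1 to day 6 (adjusted p = 0.0218) and 0.39 with BMP4 in OB (adjusted p = 0.0440). At day 6 without BMP4 it had 59 to 72 in OB, 50 to 88 in OA and 56 to 57 in ODR. At day 14 it had 28 to 65 in OB, 54 to 74 in OA and 68 to 186 in ODR, and the OB to ODR difference as a description was -1.19 ± 0.31 on the log2 scale. Without ODR day 14 replicate 2, which had 186, it was -0.78.

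**Figure D2:**
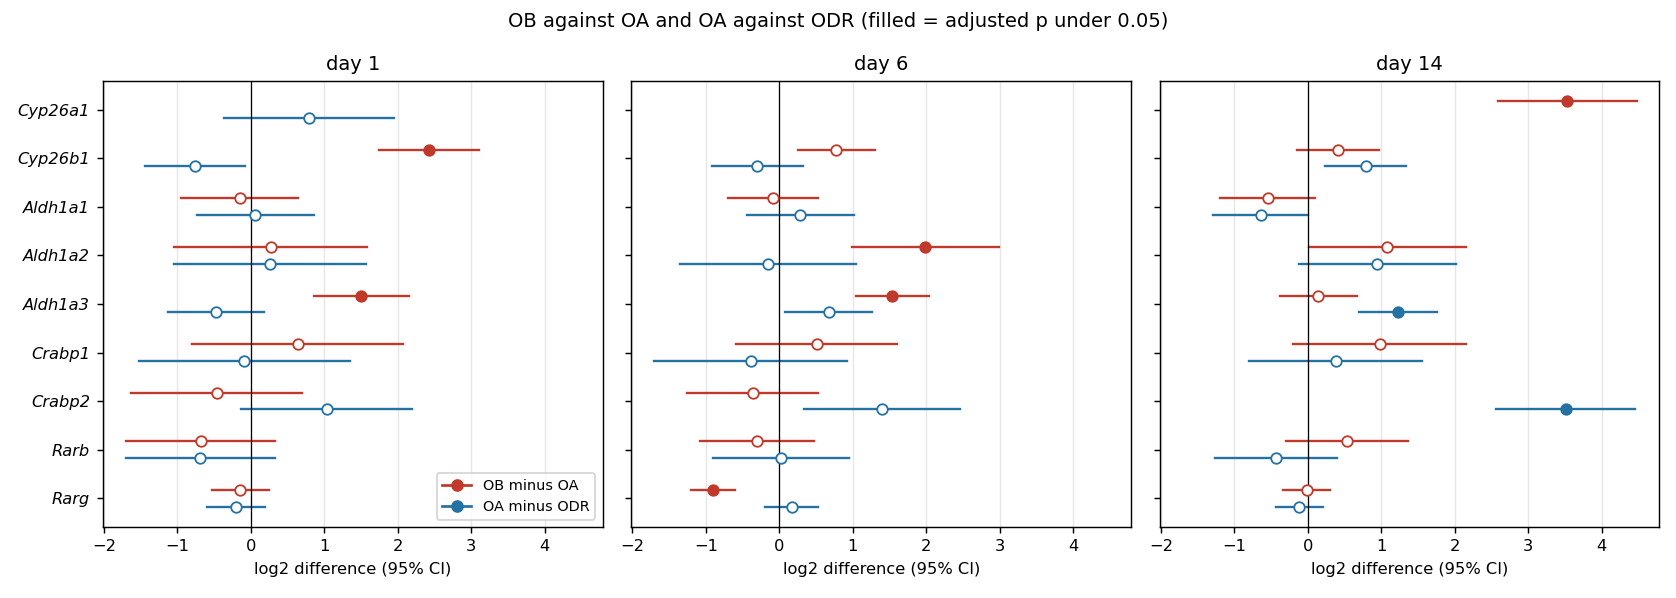
Fitted log2 differences with 95% intervals for the 9 genes, OB minus OA and OA minus ODR, at days 1, 6 and 14, with filled points for adjusted p under 0.05. Differences given only as descriptions and those of Cyp26a1 against a group listed at 0 are not drawn, and Rarg lay below 0 in OB minus OA at day 6.

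Cyp26a1, which clears retinoic acid and is induced by it, had 280 and 188 normalized tag counts in OB at day 1. It had 1 and 2 in OA and 0 and 1 in ODR. The OB libraries exceeded all others of that day by a log2 difference of 7.35 ± 0.55 over ODR and of 6.56 ± 0.55 over OA. These sizes are descriptions, since the gene was noted for the OB day 1 values, and 0.88% of all genes were called between OB and ODR at day 1.

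At day 6 Cyp26a1 stood at 39, 36, 43 and 23 in OB, and all OA and all ODR libraries without BMP4 were listed at 0. No fold is given against a group at 0. Because the filter let the gene in only through OB, the test is given from limma with no filter, where adjusted p = 2.25581e-06 against OA and adjusted p = 7.22637e-06 against ODR. At day 14 the values were 32, 10 and 16 in OB and 0, 3 and 0 in OA, with ODR again listed at 0 in all 3 libraries. OB exceeded OA by 3.53 ± 0.45 on the log2 scale, with adjusted p = 7.40172e-06 by limma with no filter, and the libraries did not overlap. Without OA replicate 2, the library at 3, the difference was 4.20. The gene was noted beforehand for its change in OB, and dropping the filter does not undo that choice. The p-values of day 6 and day 14 are therefore no independent evidence of a difference in OB.

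Within OB the mean level of Cyp26a1 was 234 ± 65.1 (SD, n = 2) at day 1, 35.2 ± 8.66 (n = 4) at day 6 and 19.3 ± 11.4 (n = 3) at day 14. The day 6 to day 1 difference of -2.70 on the log2 scale is a description. The day 14 to day 6 difference of -0.95 had adjusted p = 0.0656, with overlapping libraries, and it was called with a pseudocount of 5 (adjusted p = 0.0105) and without OB day 14 replicate 1, OB day 6 replicate 4 or OA day 14 replicate 2. In the order of all 15 labels, OB day 1 came first, then OB with BMP4 at day 6, ODB at day 9, OB at day 6 and OB at day 14. Ranges of OB at day 6 and day 14 overlapped, and all labels below them were at 6 or less.

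Cyp26b1, the related degrading enzyme, had 232 and 161 in OB at day 1, against 49 and 25 in OA and 72 and 50 in ODR. All OB libraries were above the others. The difference from OA was 2.43 ± 0.32 on the log2 scale, adjusted p = 0.000814772 (limma), and that from ODR, as a description, was 1.67 ± 0.32. The call against OA was lost when only the OB and OA day 1 libraries were fitted (adjusted p = 0.267).

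At day 6 Cyp26b1 had 91, 59, 68 and 45 in OB, 41, 32 and 38 in OA, and 53 and 39 in ODR. The OB libraries were above those of OA and overlapped those of ODR. Neither difference was called, at 0.77 with adjusted p = 0.0674 against OA and 0.48 with adjusted p = 0.331 against ODR. At day 14 it had 301, 222 and 230 in OB, 212, 177 and 175 in OA, and 138, 89 and 103 in ODR. The OB libraries lay above those of OA, and these above those of ODR. The OB to OA difference of 0.41 ± 0.26 on the log2 scale was not called.

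Those day 14 levels were above day 6 in every combination. The log2 difference from day 6 was 1.95 ± 0.25 in OB (adjusted p = 3.84929e-06), 2.32 ± 0.26 in OA (adjusted p = 7.04929e-05) and 1.23 ± 0.30 in ODR (adjusted p = 0.0249736), all by limma. The ODR call was lost without any of 3 libraries: day 6 replicate 1 (adjusted p = 0.0787), day 6 replicate 2 (adjusted p = 0.226) and day 14 replicate 1 (adjusted p = 0.103). It was also lost with only those groups fitted (adjusted p = 0.107). Between day 1 and day 6 it fell in OB, by 1.59 ± 0.28 on the log2 scale with adjusted p = 0.000315842, and no such change was called in OA or ODR. Whether the combinations differ in this was not tested.

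Crabp2, which carries retinoic acid to its receptors in the nucleus, had 1170, 1000 and 988 in OB at day 14. It had 115, 76 and 36 in OA and 3, 7 and 6 in ODR. The 3 groups did not overlap. OB stood above ODR by 7.43 ± 0.45 and above OA by 3.93 ± 0.45 on the log2 scale, both as descriptions, and 54.7% of all genes were called between OB and ODR at day 14. OA exceeded ODR by 3.51 ± 0.45, 11.4-fold, with adjusted p = 0.000322898 (limma). That call was lost when only the OA and ODR day 14 libraries were fitted (adjusted p = 0.128).

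Before day 14 no OB, OA or ODR library without BMP4 had more than 80 of Crabp2. At day 6 the gene had 80, 40, 40 and 19 in OB, 72, 38 and 49 in OA, and 16 and 22 in ODR, and at day 1 the levels were 30 to 56 in OB, 47 to 69 in OA and 22 to 34 in ODR. No factor difference in it was called at those days. In ODR the day 14 values lay below those of day 6, a log2 difference of -1.70 ± 0.51 with adjusted p = 0.0667. In the order of labels OB day 14 was followed by MEF and OB with BMP4, both at 103, ODB at day 9 with 98 and OA at day 14, whose range held those values, and ODR at day 14 came last.

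Crabp1, the other cytoplasmic binding protein, had 1596, 1134 and 1299 in OB at day 14, 1638, 156 and 1196 in OA, and 578, 390 and 617 in ODR. The value of 156 is again that of OA replicate 2. The OB to OA difference was 0.98 on the log2 scale with that library and -0.07 without it, and it was called in neither case. It was called without OA replicate 1 (adjusted p = 0.0188). OA differed from ODR by 0.38 with replicate 2 and by 1.43 without it. The OB libraries were all above the ODR libraries, by 1.36 ± 0.56 on the log2 scale as a description. Within OB it was higher at day 14 than at day 6, where it had 432 to 640, by 1.40 ± 0.52 with adjusted p = 0.029899. That call was lost without any of 5 single libraries, OB day 14 replicate 1 or 3 or OB day 6 replicate 2, 3 or 4, at adjusted p of 0.0504 to 0.0972.

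Rarg, a retinoic acid receptor, had 239, 248, 170 and 282 in OB at day 6. It had 436, 458 and 404 in OA and 394 and 376 in ODR, so that all OB libraries were below all others of that day without BMP4. The log2 difference was -0.90 ± 0.14 against OA, adjusted p = 0.000790414, and -0.73 ± 0.16 against ODR, adjusted p = 0.00689797 (limma). The call against ODR was lost without ODR replicate 1 or 2 (adjusted p = 0.0774 and 0.0565), and with only the OB and ODR day 6 libraries fitted (adjusted p = 0.0932).

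At day 14 Rarg stood at 452, 404 and 440 in OB, 448, 410 and 450 in OA, and 518, 428 and 476 in ODR, and the groups overlapped. The OB to OA difference was -0.01 on the log2 scale, with a 95% interval of -0.33 to 0.31, and -0.06 without OA replicate 2. Within OB it was higher at day 14 than at day 6 by 0.90 ± 0.14, adjusted p = 4.02147e-05, a call that held under every alternative. In OA it was higher at day 6 than at day 1 by 0.45 ± 0.17, adjusted p = 0.0498424, which was lost without any 1 of the 5 OA libraries of those days (adjusted p of 0.0593 to 0.309), without a filter (adjusted p = 0.0659) and with only those groups fitted (adjusted p = 0.0569).

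Rarb, the receptor gene that carries the DR5 shown above, did not follow Cyp26a1. At day 1 it had 20 and 24 in OB, 25 and 51 in OA, and 54 and 63 in ODR, so that the OB libraries were below the others where Cyp26a1 was at its highest. The OB to ODR difference, as a description, was -1.37 ± 0.48 on the log2 scale. At day 6 it had 67, 32, 57 and 46 in OB, 71, 36 and 86 in OA, and 71 and 50 in ODR. The OB to ODR difference was -0.29, with a 95% interval of -1.17 to 0.60 and adjusted p = 0.754.

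At day 14 Rarb had 163, 122 and 87 in OB, 73, 81 and 95 in OA, and 152, 96 and 96 in ODR. The groups overlapped. Within OB it was higher at day 14 than at day 6 by 1.28 ± 0.37, adjusted p = 0.00670024, under every alternative. It was also higher at day 6 than at day 1, by 1.12 ± 0.42 with adjusted p = 0.0470512, and that call was lost without any of 5 single libraries (adjusted p of 0.0659 to 0.216), which were both OB day 1 libraries and OB day 6 replicates 1, 3 and 4, and without a filter (adjusted p = 0.0610). The overlap with Top2b noted above bears on all Rarb values.

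Counted over time, 3 of 8 genes tested were called in OB between day 1 and day 6, beside 33.8% of all genes, with Aldh1a3 and Rarb higher and Cyp26b1 lower. Between day 6 and day 14 in OB 5 of 8 were called, beside 55% of all genes, with Cyp26b1, Crabp1, Rarb and Rarg higher and Aldh1a3 lower. In OA 2 of 9 were called by day 6, beside 34.6%, and 1 of 9 by day 14, beside 8.14%, all higher. Without OA day 14 replicate 2 the later count in OA was 3, with Crabp1 (adjusted p = 0.000494) and Aldh1a2 (adjusted p = 0.000259) added. Their day 14 to day 6 differences were 1.98 and 2.38, against 0.93 and 1.47 with that library. The earlier count in OA was then 4, with Aldh1a2 lower (adjusted p = 0.0346) and Cyp26a1 also lower (adjusted p = 0.0101). Cyp26a1 had 1 and 2 in OA at day 1 and 0 in every OA library of day 6, so its call lies at the floor and adds no support to that count. In OB the counts without OA day 14 replicate 2 became 4 by day 6, with Aldh1a2 higher (adjusted p = 0.0329), and 6 by day 14, with Cyp26a1 lower (adjusted p = 0.0139). In ODR 1 of 9 was called by day 6, beside 25.1%, and 1 of 9 by day 14, beside 3.95%, both higher. These shares say little of the 9 genes as a set, being near or below those of all genes in most of the 6 intervals.

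BMP4 at day 6 came with higher levels of both degrading enzymes in OB, and of Cyp26b1 in ODR, where Cyp26a1 stayed at 6 or less. In OB, 3 of 9 genes were called, beside 32.5% of all genes, so their share is near that of all genes, and all 3 (Cyp26b1, Cyp26a1 and Crabp2) were higher. Without OA day 14 replicate 2 the count was 4, with Aldh1a2 lower at a log2 difference of -0.95 (adjusted p = 0.0183). In ODR, 3 of 9 were called, beside 11.5%, with both Cyp26 genes higher and Crabp1 lower, from a single BMP4 library that is assumed to vary like the other groups. The test of the difference between the BMP4 effects in OB and in ODR called 0 of 9, beside 1.26% of all genes, and limma gave 1 of the 9 at an unadjusted p under 0.05.

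Cyp26b1 had 294 and 347 in OB with BMP4, against 91, 59, 68 and 45 in OB without it. The groups did not overlap, and the log2 difference was 2.31 ± 0.28, 4.95-fold, with adjusted p = 1.24441e-05 (limma), under every alternative. In ODR it had 172 with BMP4, against 53 and 39 without, a difference of 1.90 ± 0.40 with adjusted p = 0.00504555. The difference between those effects was 0.41 on the log2 scale with a 95% interval of -0.61 to 1.43, adjusted p = 0.876.

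Cyp26a1 had 152 and 108 in OB with BMP4, against 39, 36, 43 and 23 without it, and again the groups did not overlap. The log2 difference was 1.87 ± 0.48, 3.65-fold, with adjusted p = 0.00599973, and it was lost without OB with BMP4 replicate 1 (adjusted p = 0.0739). In ODR it had 6 with BMP4 and was listed at 0 in both libraries without it, all under the filter value of 10. The gene passed the filter only through OB libraries, so its call in ODR lies at the floor and adds no support to the count there. That call was lost without ODR day 6 replicate 2 (adjusted p = 0.0502) and with a pseudocount of 5 (adjusted p = 0.0714). With only the ODR groups fitted all 3 calls in ODR were lost, at adjusted p of 0.121 for Cyp26a1, 0.186 for Cyp26b1 and 0.199 for Crabp1. They were also lost when the column shared by ODR with and without BMP4 was kept in both groups, at adjusted p of 0.577 for both Cyp26 genes and 0.590 for Crabp1.

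Crabp2 had 120 and 86 in OB with BMP4, against 80, 40, 40 and 19 without it, with no overlap. The log2 difference was 1.34 ± 0.48 with adjusted p = 0.0398933. That call was lost without any of 5 single libraries, both OB with BMP4 libraries and OB day 6 replicates 2, 3 and 4 (adjusted p of 0.0617 to 0.232), and without a filter (adjusted p = 0.0507) or with only those groups fitted (adjusted p = 0.115). Crabp1 had 60 in ODR with BMP4, against 354 and 604 in ODR without it, a log2 difference of -2.93 ± 0.84 with adjusted p = 0.0306683, which was lost without ODR day 6 replicate 2 (adjusted p = 0.148). In OB it had 484 and 628 with BMP4 and 432 to 640 without. The difference between these effects was 3.06 ± 1.03, adjusted p = 0.194. Without OA day 14 replicate 2, which enters only the shared estimate of the spread, it passed at adjusted p = 0.00159, and with only the groups compared in the fit at adjusted p = 0.0305.

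Marker genes moved with BMP4 as well. The summed level of 4 keratinocyte genes was 3 to 9 in OB with BMP4, against 80 to 99 in OB without it. In ODR it was 2 with BMP4, against 132 to 148 without it. Krt5, Krt14 and Krt15 were at 0 throughout in ODR, so the sum there was Trp63 alone. Only 1 of the 4, Trp63, passed the filter. The summed level of 8 fibroblast genes was 33051 to 33939 in OB with BMP4, against 44773 to 56681 without it, and 33853 in ODR with BMP4, against 41228 to 49550 without it. The 8 did not move together. In OB 4 of them were called lower, among them Vim, and Fn1 and Thy1 were called higher, beside 32.5% of all genes. The differences of Vim and Fn1 had the same size and opposite signs, at -1.00565 and 1.00565 on the log2 scale. Neither is read here as a measured change. The table has a ceiling of 18690, and whether it sets these differences was not tested. Thy1 was also higher in ODR, by 0.75 on the log2 scale from a single BMP4 library, where no other gene of the list rose. The summed level of 6 neural genes was 2505 to 2768 in OB with BMP4, against 4667 to 5814 without it, and 3582 in ODR with BMP4, against 3839 to 4168 without it. Of the 6, Dcx, Map2 and Nes were lower with BMP4 in OB, and in ODR Nes was lower and Pax6 higher. Dcx, a neuronal microtubule protein gene, had 0 to 7 in OB with BMP4, against 58 to 136 without it. Cd68, a macrophage gene, was lower with BMP4 by limma in OB, at -1.69 ± 0.28 on the log2 scale with adjusted p = 0.000194. In ODR, with a single BMP4 library, its difference was -1.67 ± 0.40. Csf1r and Ptprc, of the same list, did not follow it, at 0.21 and -0.06 in OB and 2.06 and 2.68 in ODR. The summed level of that list was 61 to 75 in OB with BMP4, against 110 to 135 without it. In ODR it was 95 with BMP4, against 84 to 171 without it. The part of these markers in the BMP4 results was not tested.

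**Figure D3:**
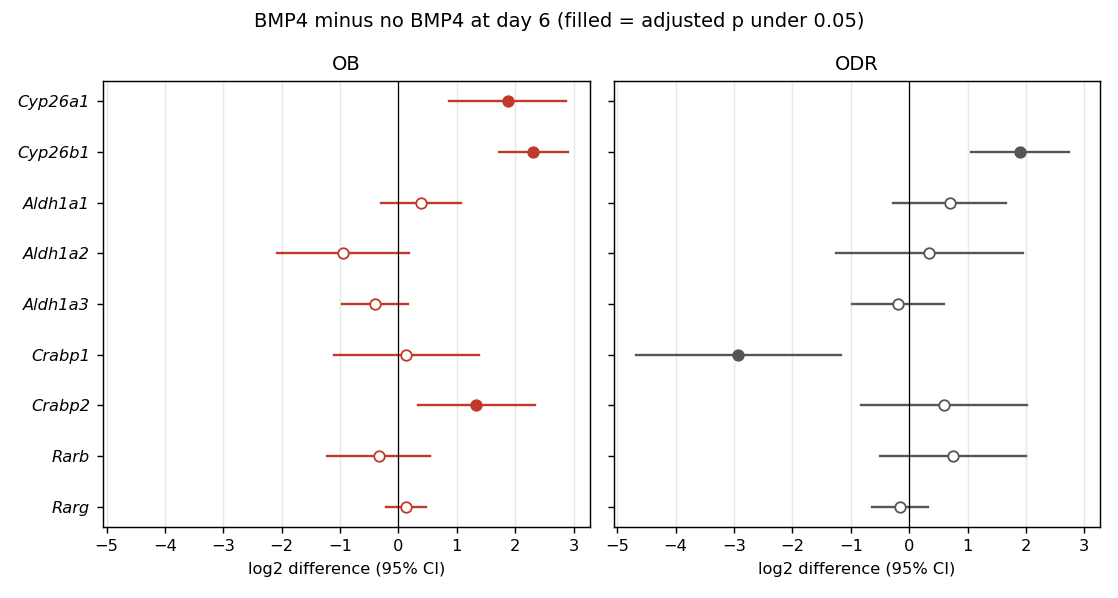
Fitted log2 differences with 95% intervals between day 6 cultures with and without BMP4, filled for adjusted p under 0.05, in OB (2 against 4 libraries) and in ODR (1 against 2). Cyp26b1 lay above 0 in both, Crabp1 lay below 0 in ODR, and Cyp26a1 in ODR is not drawn because it was listed at 0 without BMP4.

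The single libraries of day 9 and of the reference cells carry no test. ODB had 84 of Cyp26a1, 98 of Crabp2 and 157 of Rarb, and ODDR had 1, 36 and 268. Aldh1a3 was at 1079 in ODB and 686 in ODDR, and Rarg at 306 in ODB and 502 in ODDR. Cyp26a1 was listed at 0 in mESC and in MEF. Crabp1 was at 58 in mESC and 1063 in MEF, and Cyp26b1 at 2 in mESC and 65 in MEF.

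Among 13 further genes of retinoid metabolism and transport, of which 11 passed the filter, Rdh10, the retinol dehydrogenase that makes retinaldehyde in the mouse embryo, was the 1 called between OB and ODR at day 6, beside 10.5% of all genes, and between OB and OA, beside 7.28%, so the list's share is near that of all genes. It had 85 to 122 in OB, 47 to 56 in OA and 48 to 51 in ODR. The log2 difference was 0.89 ± 0.22 against OA, adjusted p = 0.0188, and 0.97 ± 0.25 against ODR, adjusted p = 0.0187 (limma). The list's median difference against ODR was 0.31, and over all genes it was -0.01.

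Stra6, the cell-surface receptor for retinol bound to its plasma carrier, had 134 to 166 in OB with BMP4, against 9 to 19 in OB without it. That is 3.28 ± 0.56 on the log2 scale, with adjusted p = 0.000238321. In ODR it had 57 with BMP4, against 6 to 7 without, at 2.95 ± 0.79 and adjusted p = 0.0206786. At day 14 Stra6 reached 450 to 734 in OB, 25 to 144 in OA and 4 to 7 in ODR, and OB exceeded OA by 3.57 ± 0.52, adjusted p = 2.14132e-05 (limma). OA exceeded ODR at adjusted p = 0.00286.

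Lrat, which stores retinol as esters, moved the other way with BMP4. It had 90 to 106 in OB with BMP4 and 502 to 732 in OB without, a log2 difference of -2.69 ± 0.41 with adjusted p = 8.60981e-05, and 118 in ODR with BMP4 against 352 to 550 without, at -1.89 ± 0.57 and adjusted p = 0.0404. By day 6 it had risen over day 1 by 5.39 ± 0.41 in OB, 6.36 ± 0.43 in OA and 5.99 ± 0.47 in ODR. In OB at day 14 it was lower than in OA, at 38 to 89 in OB against 224 to 679 in OA, a log2 difference of -2.60 ± 0.38 with adjusted p = 2.24999e-05 (limma). With BMP4 in OB, Rdh11 was also higher and Dhrs9 was also lower. Between OB and OA at day 14, where 51.7% of all genes were called, Fabp5 was higher, as was Stra6, and Adh7 was lower, as was Lrat. Rbp4 passed the filter through its OB day 14 levels, so no test of it is given. Its difference from OA at that day, as a description, was 3.53 on the log2 scale.

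Of 11 further receptors and co-regulators, limma called 0 between OB and ODR at day 6, beside 10.5% of all genes, and 1 had an unadjusted p under 0.05. The median log2 difference was -0.08, against -0.01 over all genes. With BMP4 in OB, Rxrg, an RXR partner, was higher at 14 to 20, against 2 to 5 without it, by 2.21 ± 0.72 with adjusted p = 0.0257, and the co-activator Ncoa3 was also higher, while Ncoa1 and Ppard were lower. Between day 6 and day 14 in OB, 5 of the 11 rose (Rara, Rxra, Rxrb, Ncoa3 and Nrip1) and 2 fell (Ncoa1 and Ppard), beside 55% of all genes called, a share near that of the list. The rise of Rara was 0.60 ± 0.22, adjusted p = 0.0269, and that of Rxra 0.59 ± 0.13, adjusted p = 0.00113 (limma).

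A list of 14 genes known to be induced by retinoic acid, mostly Hox genes and their partners, had 13 that passed the filter. Between OB and ODR at day 6, 1 was higher (Meis1) and 2 lower (Hoxa3 and Hoxb5), beside 10.5% of all genes called, with a median log2 difference of -0.18, against -0.01 over all genes. Cdx1 and Hoxb1 passed the filter largely through their OB day 14 levels, so neither a test of them nor a count over the list is given for that group. Hoxb1, a hindbrain Hox gene, had 98 to 120 in OB, 1 to 12 in OA and 0 in ODR at day 14, and 0 to 1 in OB at day 6. Cdx1, a caudal homeobox gene, had 64 to 124 in OB, 0 to 15 in OA and 0 in ODR at day 14, and 0 to 3 in OB at day 6. Among the others, Hoxa3, Hoxa4, Hoxb5, Hoxd4, Meis1, Meis2 and Tgm2 rose in OB between day 6 and day 14 and Foxa1 fell, in a comparison that called 55% of all genes. At day 14 Hoxa3, Hoxb4, Hoxb5, Hoxd4 and Meis1 were higher in OB than in OA, where 51.7% of all genes were called.

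With BMP4 in OB, Hoxa3, Hoxa4 and Hoxb5 of that list were higher, and Meis1 was lower, in a comparison that called 32.5% of all genes. Cdx1 and Hoxb1 were at 6 or less in OB with BMP4. No test of them is given, because they passed the filter largely through OB at day 14. Hoxa3 rose by 2.39 ± 0.38, adjusted p = 0.000143, and Meis1 fell to 59 to 84 in OB with BMP4, against 142 to 180 in OB without it, at -1.13 ± 0.17 and adjusted p = 0.000102 (limma). The median over the list was 0.80, and over all genes it was -0.02.

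Markers of other cell types moved with the OB results of day 6 and day 14. Of 9 caudal progenitor genes, known from the tail bud of the mouse embryo, 5 passed the filter (Cdx2, Cdx4, Nkx1-2, Sp5 and T), largely through their OB day 14 levels, so no count of calls is given. Cdx2 had 170 to 206 in OB, 2 to 23 in OA and 0 in ODR at day 14, and Nkx1-2 had 402 to 502 in OB, 3 to 64 in OA and 0 in ODR. The summed level of the 9 was 920 to 1106 in OB, 17 to 176 in OA and 0 to 3 in ODR at day 14, and 893 in ODB and 4 in ODDR at day 9, with Fgf8 at 0 in OB and Fgf8 and Wnt3a at 0 in OA. The summed level of 6 pluripotent genes was 282 to 324 in OB, 3 to 29 in OA and 8 to 13 in ODR at day 14, against 8798 in mESC and 5 in MEF, and none of the 6 was at 0 in OB. Only Sox2 and Esrrb of the 6 passed the filter, and the others did not reach 10 in 2 or more fitted libraries. From day 6 to day 14 in OB, Sox2 differed by 6.12 on the log2 scale as a description. Esrrb differed by 0.26 and was not called. The summed level of 8 fibroblast genes at day 14 was 28094 to 46305 in OB and 43021 to 52752 in ODR. In OA it was 34571 to 72587, with a median of 72273. That of 4 endothelial genes was 48 to 65 in OB, 53 to 214 in OA and 231 to 319 in ODR at day 14, and 135 to 222 in OB, 292 to 394 in OA and 378 to 388 in ODR at day 6. Of the 6 neural genes, 5 were higher in OB than in ODR at day 6 (Dcx, Nes, Pax6, Sox1 and Tubb3), beside 10.5% of all genes. The median log2 difference was 2.69, against -0.01 over all genes. Between OB and OA at that day 0 of the 6 were called, beside 7.28% of all genes, with a median of 0.59. OA also stood above ODR, with a median of 1.79 and 1 called (Tubb3), beside 2.22% of all genes. Sox1, an early neural gene, had 514 to 816 in OB and 108 to 160 in ODR at day 6. Summed over the 6, the level was 4667 to 5814 in OB, 4835 to 5107 in OA and 3839 to 4168 in ODR at day 6, and 2602 to 3165 in OB, 4137 to 5351 in OA and 3950 to 5286 in ODR at day 14. That of the 4 keratinocyte genes was 80 to 99 in OB, 83 to 99 in OA and 132 to 148 in ODR at day 6. At day 14 it was 17 to 66 in OB, 9 to 180 in OA (median 148) and 254 to 354 in ODR. Krt5, Krt14 and Krt15 were at 0 in OB and ODR at day 14, so the sum there was Trp63 alone. For 3 macrophage and leukocyte genes the summed level was 110 to 135 in OB, 144 to 165 in OA and 84 to 171 in ODR at day 6. At day 14 it was 5 to 28 in OB, 31 to 41 in OA and 37 to 52 in ODR. The part of these markers in the OB values of day 6 and day 14 was not tested.

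Over the 15 labels with their own library, the gene whose mean log2 level followed Cyp26a1 most closely was Kdm2b, with Pearson r = 0.929. Next came Hn1 (r = 0.853), Tle3 (r = 0.833), Mdga2 (r = 0.829) and Zmat2 (r = 0.827). For Crabp2 they were Suv39h1 (r = 0.866), Ssbp3 (r = 0.860), Bnip3l (r = 0.850), Car14 (r = 0.845) and Tsn (r = 0.836). These are descriptions over labels that share combinations and days, and Kdm2b itself separates the OB and ODB libraries from the rest. Between the 9 genes themselves, r ran from -0.71 for Cyp26a1 with Rarg to 0.70 for Rarb with Aldh1a3, and it was 0.55 for Cyp26a1 with Cyp26b1.

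**Figure D4:**
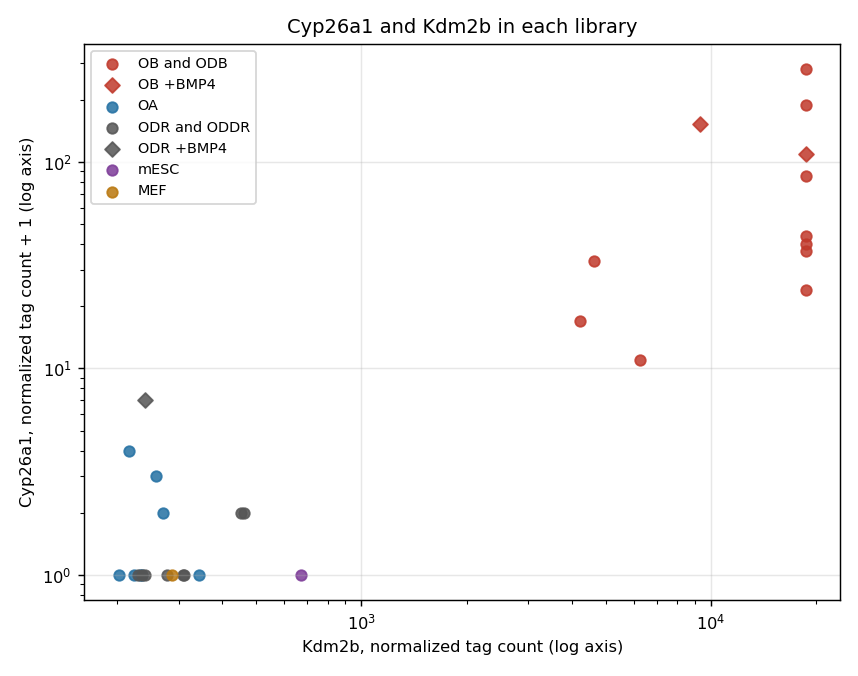
Cyp26a1 (normalized tag count plus 1) against Kdm2b (normalized tag count) in every library used, on log axes, coloured by factor combination, with diamonds for BMP4. The OB and ODB libraries sit at 4220 or more of Kdm2b and 10 or more of Cyp26a1, and all other libraries sit at 672 or less of Kdm2b and 6 or less of Cyp26a1.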

How the data were processed

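Per the submitters' processing notes, the authors used bcl2fastq, Bowtie2 2.2.5 and RSEM on build mm10. The deposited table gives a normalized tag count score in whole numbers for 21350 genes in 35 columns. How it was normalized is not stated in any source used here, and the nearly equal totals and the ceiling of 18690, reached by 9 or 10 genes per library, come from the deposited values. These scores are not read counts, so no count model was used and depth is unknown.

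Groups follow the labels. The scale was log2(value + 1), for the 13860 genes that reached 10 in 2 or more libraries. A fold change on this scale understates the change of low genes. A linear model of 11 groups and 27 libraries (16 residual degrees of freedom) was estimated by limma 3.58.1 under R 4.3.3, with 18 two-sided comparisons, each with Benjamini-Hochberg adjustment over all genes. The script was tested on simulated data. Of 2 pairs of identical columns, neither entered the fit.

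The 9 genes and the lists were chosen with earlier results of these data known. All 9 are named, with up to 3 called genes per list, comparison and direction by adjusted p, every called receptor or co-regulator, and the 5 genes of highest Pearson r with Cyp26a1 and Crabp2 among those with a label mean of at least 100. Genes given only in counts are named so that small counts can be read, and results for some listed genes are not reported here, so those counts may leave out calls. The fit without a replicate block was used, since with 3 or more pairs no comparison had every same-number correlation over 0.1. Alternatives were a pseudocount of 5, no filter, limma's trend and robust options, a fit of only the groups compared, the shared column kept, a replicate block and each library left out.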

Additional observations from a re-analysis of the deposited data

Results flagged for a closer look

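Crabp2 differed in opposite directions between day 6 and day 14 in OB and in ODR, and every library of one combination went one way and every library of the other the opposite way. The log2 difference, day 14 minus day 6, was 4.69 in OB and -1.70 in ODR, where it was not called (adjusted p = 0.0667 by limma). The difference between the combinations was not tested, and the OB value rests on the libraries for which the gene was noted.

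Aldh1a2 likewise differed in opposite directions between day 1 and day 6 in OB and in OA. The log2 difference, day 6 minus day 1, was 0.84 in OB, where day 6 had 38 to 67 and day 1 had 26 to 28, and -0.88 in OA, where day 6 had 11 to 12 and day 1 had 19 to 26. That difference was not tested either, and neither difference was called by limma on its own (adjusted p = 0.246 in OB and 0.250 in OA). Both were called without OA day 14 replicate 2, the library with low Kdm2a (adjusted p = 0.0329 and 0.0346), and with only the groups compared in the fit (adjusted p = 0.0364 and 0.0232).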

How the results depend on the processing

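The 140 tests of single genes were repeated under 1854 alternatives, of which 1761 kept direction and side of the threshold, 60 lost the call, 33 gained one and 0 reversed. Of 32 calls, 16 held under every alternative. With a pseudocount of 5, the OB minus ODR log2 difference was 5.42 for Cyp26a1 at day 1, against 7.35 with 1, and 6.69 for Crabp2 at day 14, against 7.43. The number of the 9 genes called changed by more than 1.5 times as follows. With only the groups compared in the fit it was 0 for OA against ODR at day 14 (2 in the full fit), 0 for OB against OA at day 1 (2), 5 for BMP4 in OB (3), 0 for BMP4 in ODR (3), 1 for the difference of the BMP4 effects (0), 5 for OB day 6 against day 1 (3) and 0 for ODR day 14 against day 6 (1). With trend and robust options that last count was 2, and without a filter that of OA day 6 against day 1 was 1, against 2. With the shared day 6 column kept, BMP4 in ODR gave 0.

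With 1 library left out, the count ran from 2 to 4 for OB against ODR at day 6, 2 to 4 for OA against ODR at day 14, 1 to 2 for OB against OA at day 1 and 1 to 3 at day 14. It ran from 1 to 4 for BMP4 in OB, 1 to 3 for BMP4 in ODR and 0 to 1 for the difference of those effects. Over time it ran from 0 to 1 for ODR day 14 against day 6, 1 to 4 for OA day 6 against day 1 and 1 to 3 for OA day 14 against day 6. The 4 includes Cyp26a1, which was at 2 or less in the OA libraries compared. No comparison met the rule for a replicate block, which needs 3 or more pairs and so could not be met at day 1. There the same-number correlations were 0.204 to 0.235. They ran from 0.0318 to 0.316 between OB and OA at day 14 and from -0.163 to -0.0480 between OB and ODR at day 6. Whether same-number libraries share an origin is therefore not settled. With a replicate block the count for OB against OA at day 14 was 2, against 1, and Cyp26b1 was called there (adjusted p = 0.0346) and between OB and OA at day 6 (adjusted p = 0.00214), OB and ODR at day 6 (adjusted p = 0.0239) and OA and ODR at day 14 (adjusted p = 0.00808), while Crabp2 was called between OB and ODR at day 6 (adjusted p = 0.0423). The block lost Aldh1a2 between OB and ODR at day 6 (adjusted p = 0.0855), Crabp2 with BMP4 in OB (0.149), Rarb in OB by day 6 (0.0947) and Crabp1 in OB by day 14 (0.0537). Same-number correlations ran from 0.0872 to 0.168 between OB and ODR at day 14. Genes called over the whole table, with the range over the alternatives in brackets, were 122 (0 to 264) and 1461 (520 to 2106) for OB against ODR at days 1 and 6, 194 (2 to 405), 1009 (542 to 1625) and 7164 (4394 to 7330) for OB against OA at days 1, 6 and 14, and 9 (0 to 47), 308 (28 to 646) and 741 (1 to 1228) for OA against ODR at those days. They were 4504 (2514 to 5162) for BMP4 in OB, 1598 (0 to 2466) in ODR and 174 (46 to 476) for the difference of these effects. For day 6 against day 1 they were 4679 (2771 to 5403) in OB, 4790 (2823 to 5541) in OA and 3484 (1703 to 4249) in ODR, and for day 14 against day 6 1128 (4 to 1784) in OA and 548 (152 to 1097) in ODR. The cause of these changes was not tested. Depth is unknown, and the smallest groups hold 1 or 2 libraries, which limits every comparison at day 1 and with BMP4.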

Other observations

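The columns left out because they stand under a pair of labels hold these values. The day 9 column shared by ODB with BMP4 and ODDR with BMP4 had Cyp26a1 at 0, Cyp26b1 at 204, Aldh1a3 at 216, Crabp1 at 92, Crabp2 at 47 and Kdm2b at 239. The day 6 column shared by ODR with BMP4 and ODR without it had Cyp26a1 at 1, Cyp26b1 at 39, Aldh1a3 at 120, Crabp1 at 455 and Crabp2 at 12.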
